A study of Arabidopsis thaliana with 6 samples.

Results

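Pyruvate kinase catalyses the last step of glycolysis, the transfer of phosphate from phosphoenolpyruvate to ADP, which yields pyruvate and ATP. Plants have separate cytosolic and plastidial isoforms, encoded by different nuclear genes. The cytosolic enzyme supplies pyruvate to mitochondrial respiration and to fermentation, and in plant cells other enzymes can also use the same phosphoenolpyruvate.

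The cytosolic pyruvate kinase family of Arabidopsis thaliana is described here through the 10 loci assigned to it, of which 6 had an array probe set annotated to that locus alone. These 6 are AT5G56350, AT5G08570, AT5G63680, AT4G26390, AT3G04050 and AT3G25960. The other 4 loci were covered by 2 shared probe sets, one for AT3G52990 and AT2G36580 and one for AT3G55810 and AT3G55650, so their transcripts could not be told apart within each pair. The table of deposited values holds 22746 probe sets that are not controls, of which 13513 are annotated to 1 gene; these stand for 13355 different named genes. AT5G56350 was singled out because its values were higher after estradiol on these same arrays, so its values and its difference between the groups are given as a description, with no p. The other loci belong to the set by family and not by their values. The annotation tables list these loci without product names, and the array holds no value by which the family assignment itself could be checked.

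RNA came from whole 14-day-old seedlings of stable transgenic plants in the Col-0 background, taken from the T3 generation and grown with 16 h of light and 8 h of dark. One group of 3 biological replicates received 10 µM estradiol for 2 h, and the other group of 3 received a mock treatment. All 6 samples carried the same construct: the chimeric transcription factor XVE is made constitutively, moves into the nucleus when estradiol is present, and then switches on RPX∆C, a form of RPX, itself a transcription factor of the NAC class, from a LexA promoter. The mock is given as ethanol in one label and as medium without inducer in another. No seedlings without the transgene are among the samples, so an effect of RPX∆C and one of estradiol cannot be told apart. The labels do not say how many independent lines the seedlings represent or how many seedlings made up a sample. No probe set in the annotation used here is listed for RPX, so induction of the transgene was not checked.

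Transcripts were measured on 1-colour arrays, and the deposited values are linear intensities that the authors had scaled to a common trimmed mean. Median intensity lay between 35.7 and 36.8 in estradiol samples and between 36.4 and 38.7 in mock samples. The 3'/5' signal ratio of the actin control, which increases as RNA integrity falls, was 15.2 on estradiol replicate 3 and lay between 4.37 and 6.11 on the other 5 arrays. The same ratio of the GAPDH control was 1.68 on estradiol replicate 3 and lay between 0.969 and 1.15 on the other 5 arrays. The 25S rRNA control stood at 302 and 286 on mock replicates 1 and 2, against 918 to 1534 on the other 4 arrays. Of the marker genes that tell shoot from root, 4 of 13 shoot genes and 3 of 11 root genes had a probe set of their own in the annotation used here. None of these was at 0 on any array. The summed intensity of the shoot markers ranged from 8590 to 10778 after estradiol and from 10341 to 10945 in mock seedlings. That of the root markers ranged from 1682 to 2612 after estradiol and from 2504 to 2685 in mock seedlings. The sums were lowest on estradiol replicate 2 for both organs. The root sum was almost wholly PYK10, which had 1634 on that array, where EXPA7 had 30.6 and EXPA18 17.8. Single markers differed in this. RCA, LHCB4.1, PYK10 and EXPA18 were lowest on that array, whereas LHCB4.2, LHCB4.3 and EXPA7 were lowest on other arrays. The median log2 difference, estradiol minus mock, was -0.17 for the shoot markers and -0.26 for the root markers, beside -0.03 over all probe sets. The root median was -0.089 without estradiol replicate 2. No shoot or root marker passed a limma adjusted p of 0.05. Over all probe sets 0.114% passed as higher and 0 as lower, so this count is no result about the markers. The part of organ proportions in the results below was not tested. In whole seedlings, a lower share of cells that express a gene and less RNA per cell cannot be told apart.

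AT5G56350 had intensities of 497, 529 and 371 in estradiol-treated seedlings, against 202, 158 and 180 in mock-treated seedlings. The 3 estradiol values all lay above the 3 mock values, and the lowest of them was that of estradiol replicate 3. The group means were 466 ± 83.5 after estradiol and 180 ± 22.0 in mock (SD, n = 3 each), a 2.59-fold ratio. On the scale of log2(intensity + 16) the difference was 1.29. Across the 22746 probe sets, 47 had a difference at least this large, which is 0.207% of them. AT5G56350 was chosen for its rise in this contrast, so this share describes its place and is not a test.

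Estradiol replicate 3, which has the raised actin 3'/5' ratio, gave the lowest AT5G56350 value of its group. Without that array the difference was 1.44, and with mock replicate 3 as the only control, which leaves out both arrays with the low 25S rRNA signal, it was 1.28. Over all fits that left out 1 array it lay between 1.19 and 1.44.

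**Figure D1:**
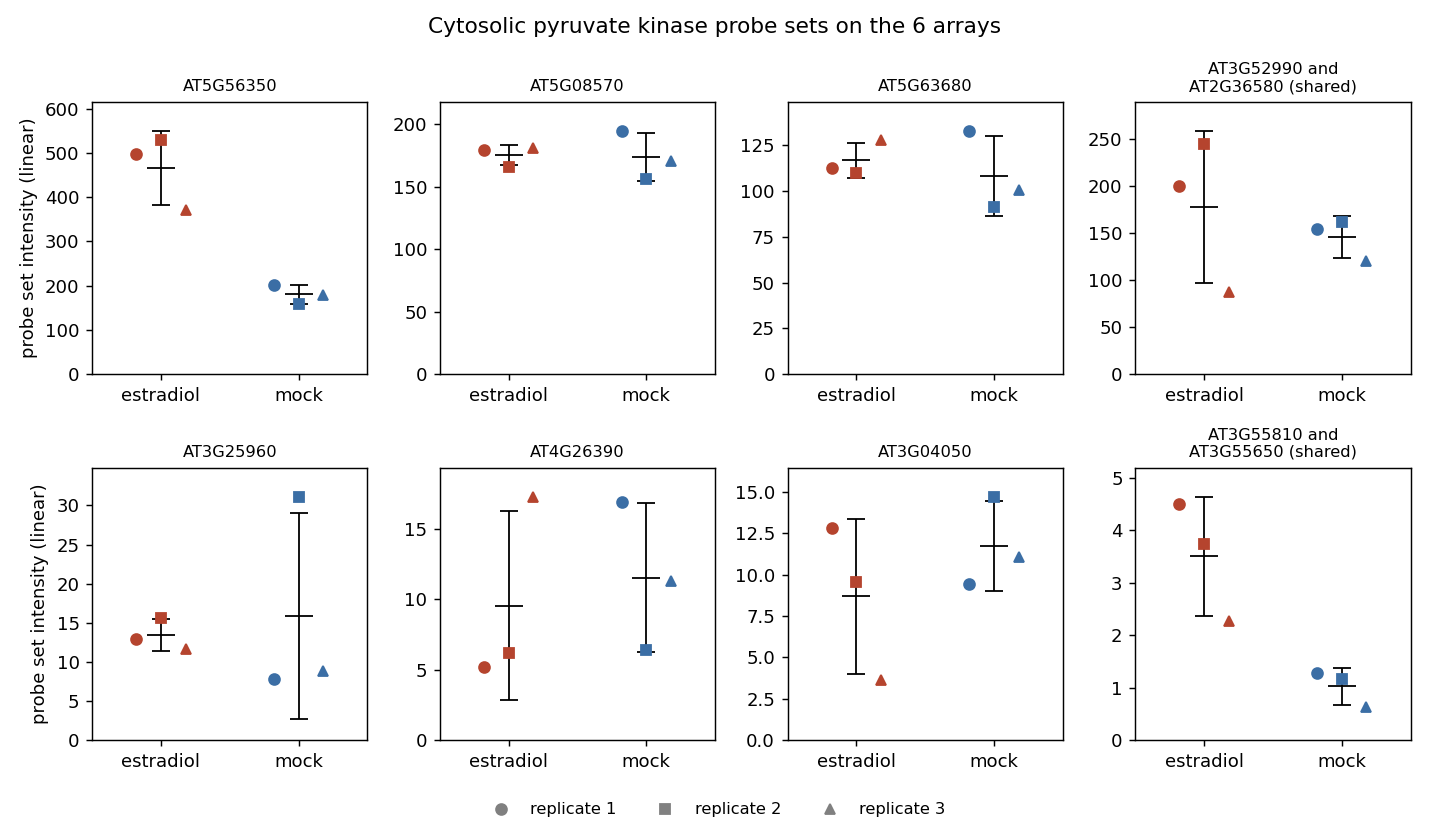
Linear probe set intensity of the 6 loci with a probe set of their own and of the 2 shared probe sets, with estradiol-treated seedlings on the left and mock-treated seedlings on the right of each panel. Points are single arrays, with a symbol for each replicate number, and bars show the mean ± SD (n = 3). Each panel has its own axis starting at 0. The AT5G56350 groups are separate, with 371 or more after estradiol and 202 or less in mock, whereas the groups of AT5G08570 and AT5G63680 overlap.

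AT5G08570 was at nearly the same intensity in both groups. Its values were 180, 166 and 181 after estradiol, against 194, 156 and 171 in mock seedlings. The estradiol values all lay inside the range of the mock values. The means were 175 ± 8.26 after estradiol and 174 ± 19.5 in mock (SD, n = 3 each). The log2 difference was 0.02 ± 0.11 (SE; limma, Benjamini-Hochberg adjusted p = 0.985), and its 95% interval ran from -0.25 to 0.28. The upper limit corresponds to a 1.21-fold higher value of intensity + 16 after estradiol, so a change of the size listed for AT5G56350 lay outside this interval.

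AT5G63680 likewise did not separate the groups. It had 112, 110 and 128 after estradiol, against 133, 91.5 and 100 in mock seedlings. The highest and the lowest value of the 6 were both from mock arrays. Means were 117 ± 9.71 after estradiol and 108 ± 21.7 in mock (SD, n = 3 each), with a log2 difference of 0.11 ± 0.15 (SE; limma adjusted p = 0.876) and a 95% interval from -0.24 to 0.45, which allows up to 1.37-fold. The log2 difference was 0.010 without mock replicate 2 and 0.24 without mock replicate 1.

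The remaining 3 loci with a probe set of their own were dim, with a mean over the 6 arrays between 10.2 and 14.6. These means lie below the 16 that was added before taking logarithms, and between 31.1% and 36.0% of all probe sets on an array were below 16 as well. The files carry no detection calls, so whether these probe sets lie above background is not known here. Differences on the log2(intensity + 16) scale understate changes at such low values.

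AT3G25960 had 13.0, 15.7 and 11.6 after estradiol, against 7.77, 31.1 and 8.77 in mock seedlings. Mock replicate 2 was more than any other array, and the remaining mock values were the lowest of the 6. The log2 difference was -0.04 ± 0.26 (SE; limma adjusted p = 0.983), and it was 0.28 without mock replicate 2.

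AT4G26390 had 5.16, 6.16 and 17.3 after estradiol, against 16.9, 6.37 and 11.3 in mock seedlings. The highest and the lowest values both came from estradiol arrays, with the highest on estradiol replicate 3. The log2 difference was -0.12 ± 0.22 (SE; limma adjusted p = 0.916), and it was -0.33 without estradiol replicate 3 and 0.017 without mock replicate 1.

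AT3G04050 had 12.8, 9.58 and 3.63 after estradiol, against 9.43, 14.7 and 11.1 in mock seedlings. Estradiol replicate 3 was the lowest array, and the other values of the groups overlapped. The log2 difference was -0.18 ± 0.16 (SE; limma adjusted p = 0.798). Leaving out estradiol replicate 3 gave -0.025, leaving out estradiol replicate 1 gave -0.30, and a pseudocount of 1 gave -0.51. The 95% intervals of the 3 dim loci were wide, from -0.66 to 0.58 for AT3G25960, from -0.64 to 0.40 for AT4G26390 and from -0.57 to 0.21 for AT3G04050.

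The shared probe set of AT3G52990 and AT2G36580 had 200, 245 and 87.6 after estradiol, against 154, 162 and 120 in mock seedlings. Estradiol replicates 1 and 2 were above all mock arrays, and estradiol replicate 3 was below them all. The means were 177 ± 81.0 after estradiol and 145 ± 22.5 in mock (SD, n = 3 each), and the log2 difference was 0.17 ± 0.33 (SE; limma adjusted p = 0.926). It was 0.56 without estradiol replicate 3, the array with the raised actin ratio, and -0.10 without estradiol replicate 2. With 2 loci behind 1 value, opposite changes of the pair would not be visible.

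The shared probe set of AT3G55810 and AT3G55650, loci of the same chromosome with 18 protein-coding genes between them in the TAIR10.1 annotation, had intensities under 5 on every array. The values were 4.50, 3.73 and 2.27 after estradiol, against 1.27, 1.17 and 0.627 in mock seedlings. The 3 estradiol values were all above the 3 mock values, an arrangement found in 5.79% of all probe sets. The log2 difference was 0.19 ± 0.09 (SE; limma adjusted p = 0.641). It was 1.14 with a pseudocount of 1 and 0.05 with a pseudocount of 64, so at these intensities the size depends on that constant.

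Among the 6 probe sets with a locus of their own, 1 (AT5G56350) had all estradiol values above all mock values, as 5.79% of all probe sets did, and 0 had them all below, as 7.74% of all probe sets did. In the fit over all 22746 probe sets, 0.114% passed a limma adjusted p of 0.05 as higher and 0 probe sets passed as lower, and the count was 0 of the 5 loci other than AT5G56350. At an unadjusted p under 0.05, a threshold that 8.54% of all probe sets reached, it was again 0 of these 5. Beside those shares, a count of 0 among 5 loci is no result about them. A p above the threshold does not show that the 5 other loci were unchanged, and their intervals give the sizes that these arrays leave possible.

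**Figure D2:**
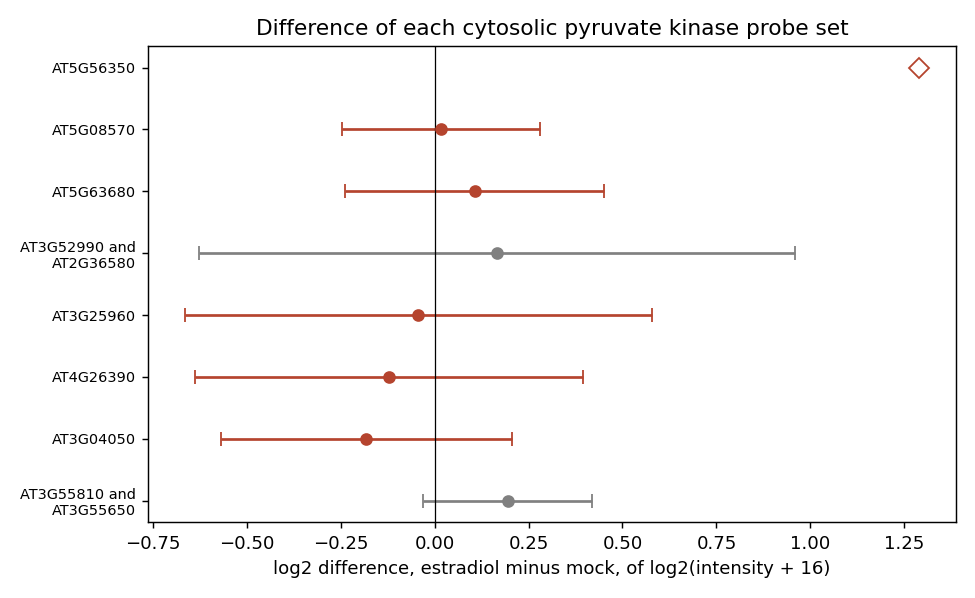
Difference of log2(intensity + 16), estradiol minus mock, for each probe set of the family. Filled points have the 95% interval of the limma fit, in red for loci with their own probe set and in grey for shared probe sets, and the open diamond is AT5G56350, which has no interval because it was chosen for its difference. The diamond lies at 1.29, and each interval of the other probe sets includes 0.

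Ratios between members on the same array do not depend on the scaling between arrays. Probe sets differ in how strongly they bind their transcript, so only the change of a ratio between arrays can be read and not its level. The ratio of AT5G56350 to AT5G08570 was 2.77, 3.19 and 2.05 after estradiol, against 1.04, 1.01 and 1.05 in mock seedlings. The mock arrays were close to each other in this ratio, with 1.04 ± 0.019 (SD, n = 3), while the estradiol arrays had 2.67 ± 0.574 (SD, n = 3).

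The ratio of AT5G56350 to AT5G63680 was 4.42, 4.81 and 2.90 after estradiol, against 1.52, 1.73 and 1.79 in mock seedlings. The groups did not overlap in either ratio, which follows from the choice of AT5G56350. The ratio of AT5G08570 to AT5G63680, in which neither locus was chosen by its values, was 1.60, 1.51 and 1.41 after estradiol, against 1.46, 1.70 and 1.70 in mock seedlings. Here the groups overlapped through mock replicate 1.

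**Figure D3:**
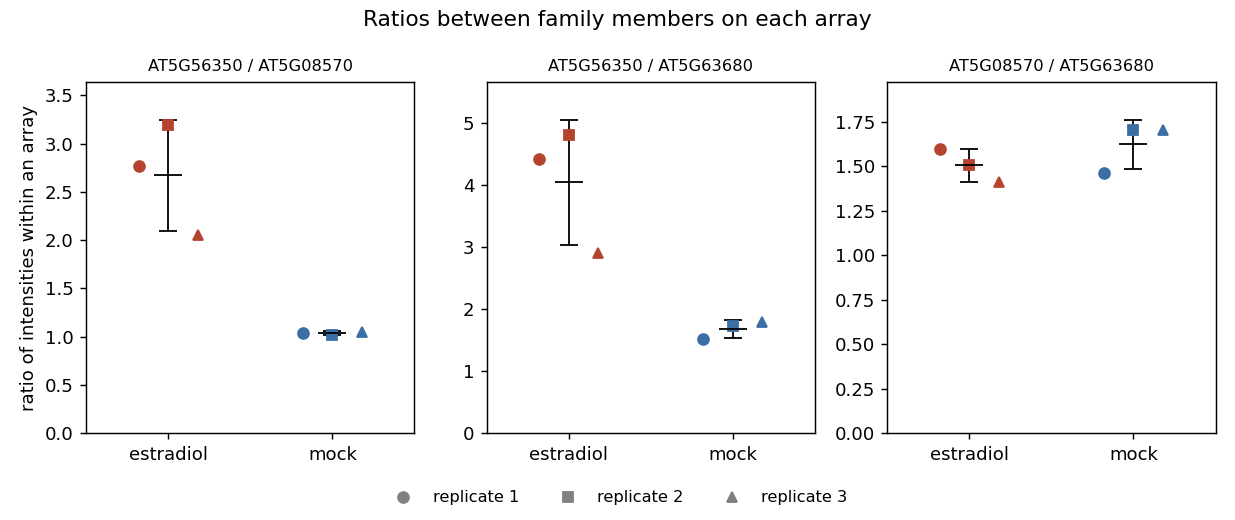
Ratio of linear intensities between 2 family members on the same array, with estradiol-treated seedlings left of mock-treated seedlings; points are arrays and bars the mean ± SD (n = 3). In the first 2 panels, with AT5G56350 as numerator, all estradiol points lie above all mock points. In the panel of AT5G08570 over AT5G63680 they lie between 1.41 and 1.70 with overlapping groups.

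The 3 loci with a probe set of their own and intensities above 16 ranked the mock arrays alike and the estradiol arrays differently. On mock arrays, replicate 1 was the highest and replicate 2 the lowest for AT5G56350, AT5G08570 and AT5G63680 alike. On estradiol arrays, replicate 3 was the lowest for AT5G56350 and the highest for AT5G08570 and for AT5G63680. The shared probe set of AT3G52990 and AT2G36580, with a mean of 161 over the 6 arrays, did not share this order. Among mock arrays it was highest on replicate 2 and lowest on replicate 3. Among estradiol arrays it was lowest on replicate 3, as AT5G56350 was. Over the 6 arrays, Pearson's r of log2(intensity + 16) with AT5G56350 was 0.35 for AT5G63680 and 0.15 for AT5G08570, and it was -0.15 for AT3G25960, -0.30 for AT4G26390 and -0.32 for AT3G04050. These are descriptions over 6 arrays that share the treatment contrast. The coefficient of variation in mock seedlings was 12.3% for AT5G56350, 11.2% for AT5G08570 and 20.1% for AT5G63680, and after estradiol it was 17.9%, 4.71% and 8.32% for the same loci.

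Outside the family, the 5 genes whose values followed AT5G56350 most closely over the 6 arrays were GSTU22 with r = 0.998, AT2G20720 with r = 0.998, AT4G28820 with r = 0.998, AT4G39670 with r = 0.995 and AT1G15920 with r = 0.994. They come from 8148 candidate genes with a mean intensity of at least 16, of which 67 had an r of 0.95 or more, and the order among such values rests on 6 arrays. In all 5, as in AT5G56350, estradiol replicate 3 gave the lowest of the estradiol values. The 5 were chosen by their likeness over these arrays, so this shared order is no separate result.

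GSTU22, which encodes a tau-class glutathione S-transferase, had 616, 600 and 320 after estradiol, against 78.5, 49.2 and 66.1 in mock seedlings. AT1G15920, which encodes a CAF1-type deadenylase, had 498, 538 and 388 after estradiol, against 188, 177 and 184 in mock seedlings. AT2G20720 had 103, 112 and 59.5 after estradiol, against 14.3, 1.86 and 6.43 in mock seedlings. In each of these the 3 estradiol values were above the mock values, as the likeness to AT5G56350 implies.

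AT4G28820 had a smaller contrast, with 60.0, 60.0 and 52.3 after estradiol, against 38.4, 35.3 and 36.5 in mock seedlings. AT4G39670 had 106, 98.6 and 78.6 after estradiol, against 50.3, 40.1 and 44.5 in mock seedlings. Pearson's r compares the pattern over arrays and takes no account of size. The log2 differences of the 5 genes ran from 0.48 for AT4G28820 to 2.67 for GSTU22, and that of AT1G15920, at 1.29, equalled that of AT5G56350 to 2 decimals.

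**Figure D4:**
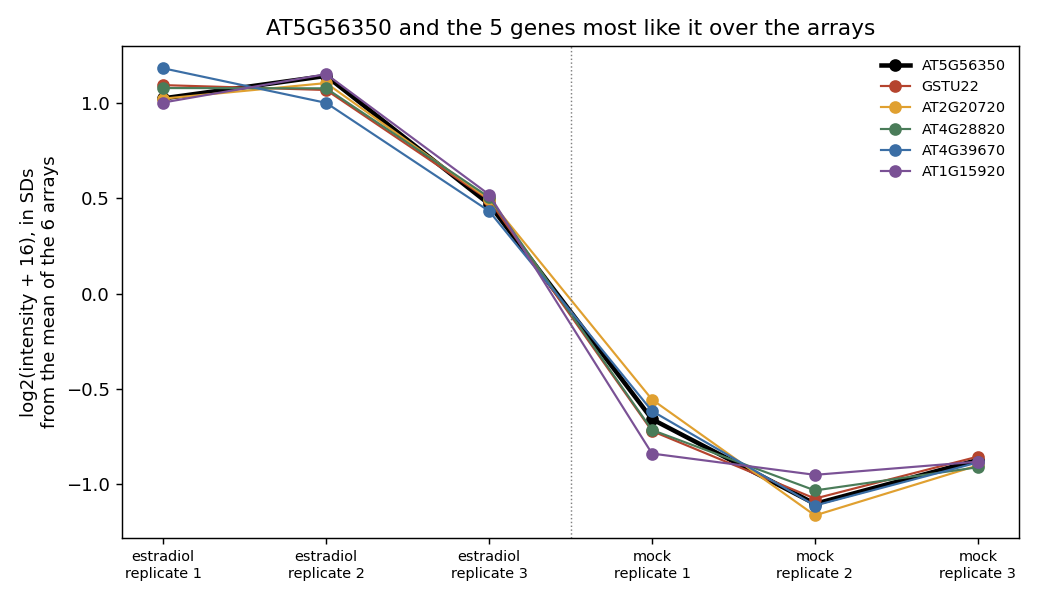
Values of log2(intensity + 16) for AT5G56350 and the 5 genes with the highest Pearson r to it, each in SDs from its own mean over the 6 arrays; estradiol arrays are left of the dotted line and mock arrays right of it. The 6 profiles nearly coincide, as the choice by r implies, and in each of them estradiol replicate 3 lies between the other estradiol arrays and the mock arrays.

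The locus next to AT5G56350 in the TAIR10.1 gene order that had its own probe set, ATCRT1 (AT5G56340), was looked up after the values of the family had been seen. It had 57.3, 73.0 and 65.1 after estradiol, against 69.3, 80.1 and 80.9 in mock seedlings. Its groups overlapped, and its log2 difference was -0.19 ± 0.12 (SE).

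The steps of glycolysis ahead of pyruvate kinase were covered thinly in the annotation used here, with 9 of 42 listed genes given a probe set of their own. None of the 9 passed the limma threshold in either direction, beside 0.114% of all probe sets. Of the 9 differences, 7 were positive and 2 negative, with a median of 0.19, beside a median of -0.03 and 42.9% positive differences over all probe sets tested. The median was 0.11 without estradiol replicate 3, 0.12 without mock replicate 2 and 0.096 without replicate 3 of both groups.

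Among the early steps, cPGI (AT5G42740), the cytosolic glucose-6-phosphate isomerase, had 194, 181 and 148 after estradiol, against 146, 127 and 144 in mock seedlings. The estradiol values lay above the mock values by a narrow gap, and the log2 difference was 0.29 ± 0.13 (SE; limma adjusted p = 0.598). PFP-alpha2 (AT1G76550), a regulatory subunit of the pyrophosphate-dependent phosphofructokinase, had 184, 176 and 190 after estradiol, against 129, 140 and 160 in mock seedlings. This was the measured gene of the list with the smallest p, at an unadjusted p of 0.019 and an adjusted p of 0.501, with a log2 difference of 0.33 ± 0.11 (SE).

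The other measured subunits of that enzyme had differences of like size and wider spread. PFP-alpha1 (AT1G20950) had a log2 difference of 0.32 ± 0.28 (SE; limma adjusted p = 0.789), and PFP-beta1 (AT1G12000), a catalytic subunit, 0.33 ± 0.20 (SE; limma adjusted p = 0.703). Leaving out each array in turn moved PFP-alpha1 between 0.05 and 0.48 and PFP-beta1 between 0.12 and 0.46.

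Later steps lay closer to 0. The triose-phosphate isomerase gene cTPI (AT3G55440) had 1490, 1601 and 1567 after estradiol, against 1818, 1550 and 1536 in mock seedlings, and a log2 difference of -0.07 ± 0.11 (SE). The non-phosphorylating glyceraldehyde-3-phosphate dehydrogenase gene NP-GAPDH (AT2G24270) had a difference of -0.06 ± 0.21 (SE). The phosphoglycerate kinase gene PGK2 (AT1G56190) had 0.19 ± 0.12 (SE), and the enolase gene ENO3 (AT2G29560), one step ahead of pyruvate kinase, 0.18 ± 0.15 (SE). The list of glycolysis genes was not divided into cytosolic and plastidial isoforms, so the product of PGK2 need not act in the cytosol. GAPC2 (AT1G13440), a cytosolic glyceraldehyde-3-phosphate dehydrogenase gene named after its values were seen, had 0.03 ± 0.14 (SE). The signs for cTPI, NP-GAPDH and GAPC2 did not hold when single arrays were left out.

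Genes for the use of phosphoenolpyruvate and pyruvate were represented by 4 of 29 listed genes in the annotation used here. None of these passed the threshold, beside 0.114% of all probe sets. Their median difference was 0.06, with 2 positive and 2 negative values, and it lay between -0.0084 (without estradiol replicate 1) and 0.13 (without estradiol replicate 3) when each array was left out. PPDK (AT4G15530), whose product interconverts phosphoenolpyruvate and pyruvate, had 1737, 1619 and 1595 after estradiol, against 1652, 1744 and 1560 in mock seedlings. Its difference was -0.0006 ± 0.097 (SE; limma adjusted p = 0.9996), with a 95% interval from -0.23 to 0.23.

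PDC2 (AT5G54960), a pyruvate decarboxylase gene of ethanol fermentation, had 117, 69.5 and 138 after estradiol, against 296, 162 and 120 in mock seedlings. The groups overlapped through mock replicate 3, and the log2 difference was -0.70 ± 0.34 (SE; limma adjusted p = 0.641). It ranged from -0.97 without mock replicate 3 to -0.37 without mock replicate 1, and was -0.17 against mock replicate 3 alone.

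The pyruvate dehydrogenase subunit gene PDH-E1beta (AT5G50850) had a log2 difference of 0.16 ± 0.14 (SE) and the lactate dehydrogenase gene LDH (AT4G17260) one of 0.12 ± 0.16 (SE). A probe set shared by PDC3 and PDC4 had -0.04 ± 0.14 (SE). Of the 3 plastidial pyruvate kinase genes listed, 0 had a probe set listed in the annotation used here, so the cytosolic family could not be set beside its plastidial counterpart.

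**Figure D5:**
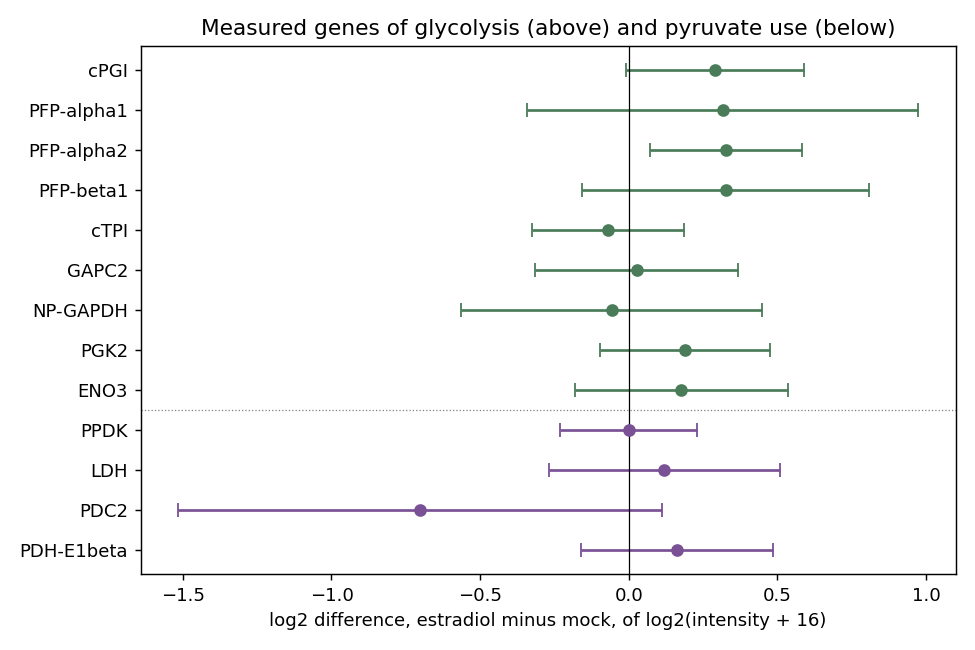
Difference of log2(intensity + 16), estradiol minus mock, for the measured genes of glycolysis ahead of pyruvate kinase (green, in pathway order) and of phosphoenolpyruvate and pyruvate use (purple). Cytosolic and plastidial isoforms are not separated. Points are estimates and bars 95% intervals of the limma fit with 3 arrays a group. The interval of PFP-alpha2 runs from 0.07 to 0.58, and those of the other genes include 0; no adjusted p is under 0.05.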

How the data were processed

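The deposited values are 1 linear intensity per probe set and array, made by the authors. Per the submitters' processing notes GCOS and affy were involved, in roles and versions that are not given in the sources used; the same holds for the summary method. The trimmed mean (2% at each end) was 100.0 on every array. The 64 control probe sets were left out of the tests. Probe sets were named from the platform annotation through Entrez IDs to TAIR10.1: 13513 had 1 gene, 503 several and 8730 none listed. No coordinates are given, because the build behind the platform annotation is not named. Neither promoter nor protein sequences were used here.

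Values were tested as log2(intensity + 16) by a two-sided moderated test in limma 3.58.1 (R 4.3.3; functions lmFit and eBayes) with treatment group as sole factor and all 6 arrays, and p was adjusted by the Benjamini-Hochberg method across the 22746 probe sets, with no filter, and a threshold of 0.05. With 3 arrays a group, the smallest p of an exact permutation test is 0.1. The number of arrays limits the precision. The fit was tested on simulated data. The members and lists were chosen with earlier results of these data known. Named were all members, from each list up to 8 genes with the smallest p and 2 with the largest difference each way, and the 5 genes with the highest r to AT5G56350. Of several probe sets of 1 gene in a list, the brightest stood for it. Arrays were not paired by replicate number, since same-numbered arrays' deviations from their group means correlated at 0.091, 0.11 and 0.33. Alternatives changed the pairing, scaling, filter, pseudocount, variance model, array weights and arrays used; mock replicate 3 as the only control was added after the data were seen. Figures were drawn with matplotlib 3.10.9.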

Additional observations from a re-analysis of the deposited data

How the results depend on the processing

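The log2 difference of AT5G56350 stayed between 1.11 (pseudocount of 64) and 1.44 over the 15 alternatives. The count of probe sets past the threshold was 26 on all arrays in the main setting. It was 17 with a replicate block, 19 with quantile normalization and 97 after removal of probe sets at or under the 25th percentile of mean intensity. A pseudocount of 1 gave 0 and one of 64 gave 11. A variance trend and robust fit gave 51, and array weights gave 92. The count was 0 to 57 when each array was left out and 0 without replicate 3 of both groups. No count is given for mock replicate 3 as the only control, where the lone array is assumed to vary like the estradiol arrays. The cause of these shifts was not tested; fewer arrays also lower the power. AT5G56350 was chosen for its difference, so its calls at this threshold are not given. No other family probe set passed in any setting with more than 1 array a group, beside 0.114% of all probe sets in the main setting. The filter removed none of the 6 family probe sets with a locus of their own. It removed the shared probe set of AT3G55810 and AT3G55650, which has no value there. The replicate block changed no call among the other family probe sets. The replicate numbers share no stated source, and 2 of the 6 arrays correlated best with their own number.

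Differences near 0 changed sign, none of them past the threshold. When each array was left out, the ranges were -0.33 to 0.017 for AT4G26390, -0.052 to 0.094 for AT5G08570, -0.22 to 0.28 for AT3G25960, -0.10 to 0.56 for the probe set of AT3G52990 and AT2G36580, -0.073 to 0.14 for GAPC2, -0.11 to 0.0083 for cTPI, -0.25 to 0.11 for NP-GAPDH, -0.041 to 0.039 for PPDK, -0.030 to 0.17 for LHCB4.1, -0.26 to 0.086 for EXPA7 and -0.099 to 0.072 for PDC3 and PDC4. Quantile normalization gave 0.028 for AT3G25960, 0.0022 for cTPI and 0.076 for PPDK, and moved the median of the shoot markers to -0.027 from -0.17. A pseudocount of 1 gave 0.032 for AT3G25960, array weights gave 0.023 for PPDK, and leaving out replicate 3 of both groups gave -0.012 for AT5G08570. Against mock replicate 3 alone the values were 0.25 for AT3G25960, 0.015 for cTPI, 0.080 for PPDK, 0.018 for RCA, -0.17 for LHCB4.1 and 0.092 for PDC3 and PDC4. Of the 5 genes most like AT5G56350, 4 or 5 stayed among the top 5 with other pseudocounts, with quantile normalization and without estradiol replicate 3, and 2 stayed with mock replicate 3 as the only control. Signal over background could not be judged for the 3 dim loci.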

Other observations

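The 6 singly measured family members had 12 neighbouring positions in the TAIR10.1 gene order. Of these, 8 had a locus with its own probe set in the annotation used here. Their log2 differences lay between -0.58 and 0.19, and 0 of them passed the limma adjusted threshold, beside 0.114% of all probe sets. At an unadjusted p under 0.05 the count was 1 of 8, near the share of 8.54% over all probe sets. That 1 was AT3G25950, next to AT3G25960, with intensities of 30.4, 10.7 and 16.0 after estradiol, against 43.6, 32.1 and 30.1 in mock seedlings; estradiol replicate 1 overlapped the mock values. These loci were chosen after the family's values were seen.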
